A study of Mus musculus with 11 samples.

Results

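The hypoxia-inducible factor (HIF) subunits and the enzymes that sense oxygen for them were described at the transcript level in cultured mouse mesenchymal stem cells (MSCs). The 9 genes were chosen by name as the HIF-α subunits Hif1a, Epas1 and Hif3a, their partner Arnt, the prolyl hydroxylases Egln1, Egln2 and Egln3, the asparaginyl hydroxylase Hif1an, and Vhl. All 9 were found among the 28222 genes of the count table, and 8 passed the filter on low counts, which left 16132 genes for testing. Hif3a did not pass.

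Polyadenylated RNA was sequenced in 11 libraries of MSCs, all grown at 2% oxygen in αMEM with serum. The labels gave the age of the mice as 3 to 5 months (young) or 18 to 22 months (old) and a batch, A, B or C, without saying what a batch was. The groups were batch A young (n = 4), batch B young (n = 2), batch B old (n = 2) and batch C old (n = 3). No tissue of origin, strain, genotype or treatment was given, nor whether animals were pooled or libraries came from separate cultures, so p-values measure only the spread between these libraries. Age and batch were separable only within batch B, and no library was grown at another oxygen level.

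In cells with ample oxygen, prolyl hydroxylases use molecular oxygen and 2-oxoglutarate to hydroxylate HIF-α, which is then bound by the VHL ubiquitin ligase and degraded. An asparaginyl hydroxylase, called factor inhibiting HIF, blocks the recruitment of co-activators in addition. When oxygen is scarce, HIF-α accumulates, pairs with ARNT and binds hypoxia response elements near genes of glycolysis, blood vessel growth and its own hydroxylases. Since this control acts on the protein, transcript levels do not measure HIF activity. MSCs are commonly taken from bone marrow, a tissue of low oxygen, and both HIF-1α and HIF-2α are expressed in the skeletal lineage.

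Total counts per library were between 11969336 and 20315934, and 3 counts, taken as the smallest detectable level, corresponded to 0.156 to 0.253 CPM (counts-per-million of the library total after scaling with TMM factors). All 10 MSC markers were detected in every library, at levels from 2.79 to 15.02 CPM for Lepr, 8.42 to 30.5 CPM for Nt5e and 53.9 to 100.3 CPM for Eng up to 589.5 to 2851 CPM for Cxcl12. Their summed level was 3474 to 4333 CPM in batch A, 3415 to 3654 CPM in the young and 2554 to 2856 CPM in the old libraries of batch B, and 4827 to 4885 CPM in batch C. The summed level of 16 macrophage and leukocyte markers, Ptprc and Csf1r among them, was 777 to 1731 CPM in batch A, 441 to 900.1 CPM in the young and 913 to 1299 CPM in the old libraries of batch B, and 151 to 180.2 CPM in batch C. Of these markers, 16 of 16 were lower in batch C old than in batch B old libraries in edgeR's test (28.3% of all genes were). Between batch B young and batch A young libraries 8 of 16 were lower (13.1% of all genes), so that the batch differences below ran alongside a difference in leukocyte transcripts. Other markers differed too between batches C and B at old age. Of all genes, 26.9% were higher and 28.3% lower in batch C. There, 6 of 10 MSC markers were higher and 2 lower, and 4 of 6 osteoblast markers were higher (summed level 480.5 to 673.8 CPM against 361.8 to 389.6 CPM). Of 4 tested adipocyte markers, 3 were higher (65.4 to 82.96 CPM against 17.03 to 26.0 CPM). Between batches B and A, 3 of 6 osteoblast and 2 of 4 tested adipocyte markers were lower and 0 higher. For age within batch B, 2 of 10 MSC and 1 of 5 chondrocyte markers were lower (1.54% of all genes). At the same time 1 of 6 osteoblast markers and the muscle marker Des were higher (0.694% of all genes). Of the 16 macrophage and leukocyte markers 0 passed for age. Their median log2 fold change was 0.73, compared with 0.0044 for all genes, and their summed levels did not overlap between the ages of batch B. The part of these markers in the results on HIF genes was not tested. The pairs of batch B, on which the age comparison rests, differed within themselves in the share of mitochondrial counts, with 0.943% and 1.85% in young and 3.74% and 1.33% in old libraries. In bulk RNA, fewer cells of a type and less RNA per cell cannot be told apart.

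Promoter sequences are shown for 4 of the genes that differed between batches. Egln2 and Hif1an also differed between batches and are not shown. They are Hif1a and Vhl, which were both higher in batch B than in batch A young libraries and lower in batch C than in batch B old libraries, and Egln1 and Egln3, which differed in opposite directions between batches C and B. Each is the stretch of 250 bases before the RefSeq start of the gene (GRCm38.p6), written 5′ to 3′ on the strand of the gene, with matches to the core of the hypoxia response element (ACGTG or GCGTG, either strand) in capitals. The windows are chr12:73907617-73907866 (plus strand) for Hif1a, chr6:113623744-113623993 (plus strand) for Vhl, chr8:124949255-124949504 (minus strand) for Egln1 and chr12:54203875-54204124 (minus strand) for Egln3. The RefSeq starts used for Hif1a, Vhl and Egln1 lie inside the spans of the annotated genes given below, so that these windows lie partly or, for Hif1a, wholly within them.
Hif1a: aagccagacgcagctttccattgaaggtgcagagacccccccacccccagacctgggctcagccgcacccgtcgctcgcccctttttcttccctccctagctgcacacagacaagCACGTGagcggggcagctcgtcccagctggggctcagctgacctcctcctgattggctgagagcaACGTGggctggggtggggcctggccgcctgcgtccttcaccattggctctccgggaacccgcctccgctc
Vhl: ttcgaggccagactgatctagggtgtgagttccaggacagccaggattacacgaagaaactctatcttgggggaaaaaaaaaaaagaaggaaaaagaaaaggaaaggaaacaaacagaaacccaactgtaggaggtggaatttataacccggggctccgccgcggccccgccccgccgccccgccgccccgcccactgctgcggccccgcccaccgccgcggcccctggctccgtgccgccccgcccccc
Egln1: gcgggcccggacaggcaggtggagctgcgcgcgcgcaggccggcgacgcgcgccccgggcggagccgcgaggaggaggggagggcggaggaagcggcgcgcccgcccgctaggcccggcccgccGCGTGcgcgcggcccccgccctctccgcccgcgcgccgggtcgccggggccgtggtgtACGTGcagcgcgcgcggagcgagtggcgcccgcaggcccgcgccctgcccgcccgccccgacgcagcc
Egln3: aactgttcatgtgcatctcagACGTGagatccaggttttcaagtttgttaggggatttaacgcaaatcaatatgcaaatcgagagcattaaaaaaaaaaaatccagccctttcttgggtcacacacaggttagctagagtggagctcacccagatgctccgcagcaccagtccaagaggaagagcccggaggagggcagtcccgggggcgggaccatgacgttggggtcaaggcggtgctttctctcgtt

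The Hif1a window held 3 matches, 2 of which were the overlapping strands of a single CACGTG, a motif also bound by other basic helix-loop-helix factors. The Egln1 window held 2 matches, 1 of each form, at 126 and 68 bases before the start, and the Egln3 window held 1, at 229 bases. In the Vhl window 0 matches were found. Of all 32851 RefSeq promoter windows of the same length, 38.6% held at least 1 match and 16.7% held at least 2. RefSeq gave such windows for 8 of the 9 genes. Of the windows not shown, those of Egln2 held 4 and 1 matches, that of Hif3a 2, that of Arnt 1 and that of Hif1an 0. A match describes letters only, and none of these windows was measured for binding.

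The order of the genes by level was compared per length of annotated exons, as RPKM, the CPM divided by that length in kilobases. Hif1a was the most abundant and Egln1 the second in each of the 4 groups, and Hif3a was last. Hif1a averaged 56.5 RPKM in batch A, 96.1 RPKM in young and 90.4 RPKM in old libraries of batch B, and 44.3 RPKM in batch C, whereas Epas1, the other HIF-α subunit that passed the filter, averaged 3.72 to 5.07 RPKM. Hif1a thus made up 89.1% to 96.1% of the RPKM of both genes in every library. Among the prolyl hydroxylases the order was Egln1, Egln2, Egln3 in each group. The middle of the order moved with batch. Vhl had rank 4 at 12.5 RPKM in batch A young libraries and rank 7 at 5.995 RPKM in batch C old libraries. Neighbours whose ranges overlapped were Egln3 and Epas1 in batch A young, Vhl and Egln2 as well as Hif1an and Epas1 in batch B old, and Egln3 and Arnt as well as Hif1an and Vhl in batch C old libraries. The place of Arnt depends on the length used, because with the longest transcript in place of all exons it ranked above Vhl in both young groups.

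**Figure D1:**
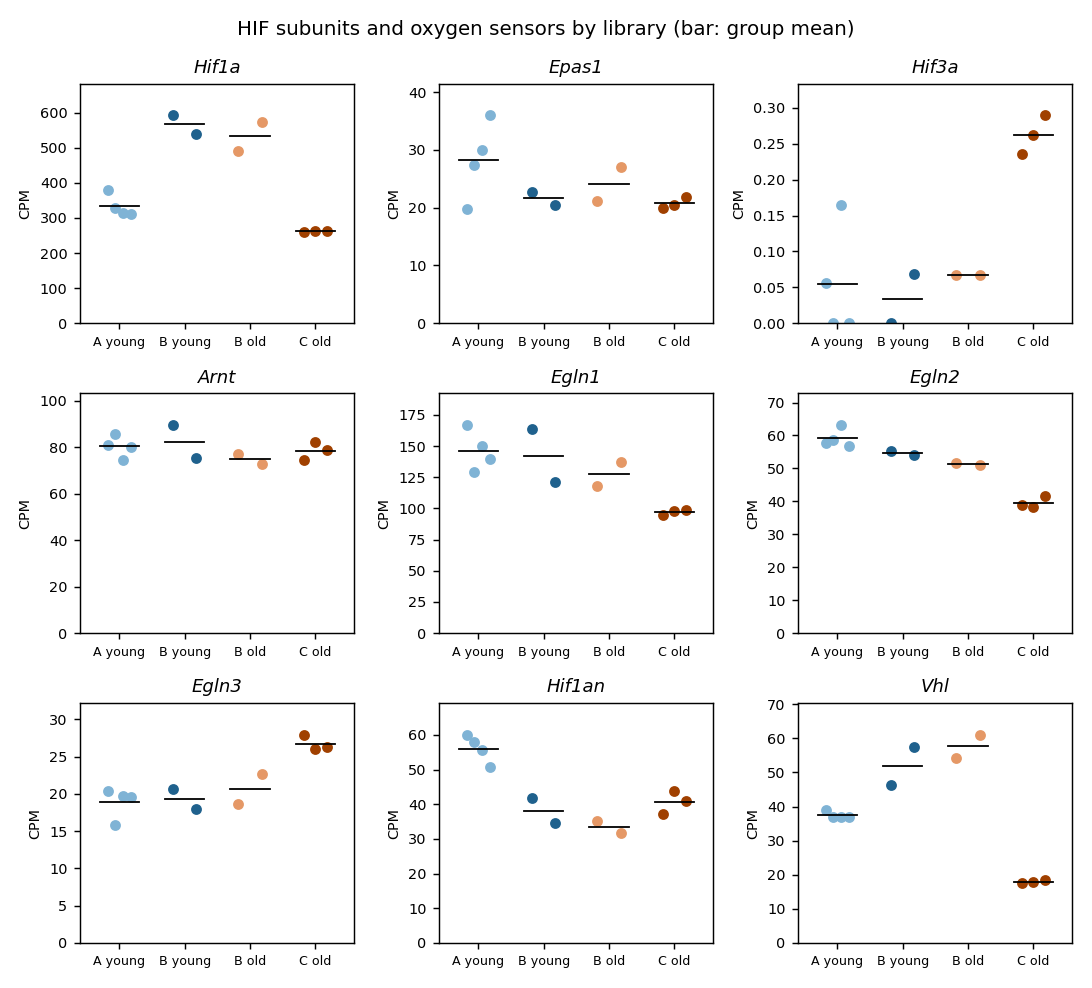
CPM (TMM-scaled, linear axes from 0) of the 9 genes in each of the 11 libraries, with 1 point per library and a bar at the group mean. Hif1a and Vhl were highest in both batch B groups and lowest in batch C old libraries, Arnt stayed between 72.6 and 89.7 CPM, and Hif3a never exceeded 0.29 CPM.

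The first question was whether the genes differed between old and young MSCs of batch B, where age was not confounded with batch. No difference was detected: 0 of 8 genes passed edgeR's quasi-likelihood test at a Benjamini-Hochberg threshold of 0.05, 0 had an unadjusted p-value under 0.05, and limma-trend and DESeq2 also called 0. Among all genes tested, 2.23% passed (0.694% higher and 1.54% lower in old MSCs), and 16.1% had an unadjusted p-value under 0.05. The smallest edgeR adjusted p-value was 0.49, for Hif1an, and the median log2 fold change of the 8 genes was −0.09, compared with 0.0044 for all genes. The 95% intervals of the 8 differences lay between a 0.724-fold and a 1.51-fold level in old relative to young MSCs. Larger differences are outside these intervals and smaller ones were not resolved with 2 libraries per age. The intervals rest on a spread fitted over all 4 groups, whereas the batch B pairs were the least alike. The chi-square statistic per gene was 52.4 and 23.7 for its young and old pair and 3.24 to 18.6 within batches A and C. With only batch B fitted, 123 genes were called instead of 360. The intervals may understate the spread within batch B.

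Hif1a (ENSMUSG00000021109, chromosome 12, 73901375 to 73947530 on GRCm38), the HIF-α subunit of most cell types, was at 593.7 and 539 CPM in the young pair of batch B and at 491.7 and 574.7 CPM in the old pair. The ages overlapped, and the log2 fold change was −0.09 (edgeR adjusted p 0.775, 95% interval −0.35 to 0.18, SE 0.12). Without batch B old replicate 1 the value was 0.03. Exons of Hif1a share 330 bases with the antisense gene Gm15283 and 148 bases with Gm49321 on the same strand, and whether strand was used in counting is not given in the sources used here.

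Epas1 (ENSMUSG00000024140, chromosome 17, 86753700 to 86833410) encodes HIF-2α, which is best known from endothelial cells. It was at 22.8 and 20.5 CPM in the young pair of batch B and at 21.2 and 26.99 CPM in the old pair, again with overlap (log2 fold change 0.15, with an edgeR adjusted p of 0.76 and an SE of 0.21). Of 8 endothelial markers, 6 stayed under 1 CPM in every library, Pecam1 and Cdh5 among them at no more than 0.589 CPM. Flt1 reached 1.41 CPM and Tek 8.56 CPM, the summed level was at most 10.7 CPM, and 1 of the 3 tested markers was higher in batch B than in batch A young libraries (12.8% of all genes were). Hif3a (ENSMUSG00000004328, chromosome 7, 17031507 to 17062427), whose products include inhibitors of the other subunits, had 0 to 4 counts per library. It had 0 and 1 counts in batch B young, 1 and 1 in batch B old, 0 to 2 in batch A young, and 4 in each batch C old library, above the level of 3 counts in that batch alone. Without a filter, edgeR's test of batch C against B at old age gave an adjusted p-value of 0.385 for Hif3a.

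Arnt (ENSMUSG00000015522, chromosome 3, 95434388 to 95497240), the shared partner of the HIF-α subunits, was at 89.7 and 75.2 CPM in the young pair of batch B and at 77.1 and 72.6 CPM in the old pair. Its log2 fold change was −0.14 (edgeR adjusted p 0.574, SE 0.11). Arnt was the steadiest of the 8 tested genes, with a mean of 79.3 ± 5.21 CPM over all libraries (SD, n = 11).

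Of the prolyl hydroxylases, Egln1 (ENSMUSG00000031987, chromosome 8, 124908587 to 124949324), the main regulator of HIF-1α in most cells, was at 163.4 and 121.3 CPM in the young pair of batch B and at 118.4 and 137.3 CPM in the old pair. Young replicate 1 was the highest and old replicate 1 the lowest, so that the spread within each age was as wide as the difference between them (log2 fold change −0.16, with an edgeR adjusted p of 0.634 and an SE of 0.14). Egln2 (ENSMUSG00000058709, chromosome 7, 27158658 to 27166802) was at 55.2 and 54.2 CPM in young and at 51.7 and 51.03 CPM in old libraries. It was the only one of the 8 genes whose ages did not overlap in batch B, as was the case for 39.7% of all genes tested, and its log2 fold change of −0.09 did not pass the test (edgeR adjusted p 0.701, SE 0.10). Egln2 shares 11 exonic bases with Cyp2t4 on the opposite strand. Egln3 (ENSMUSG00000035105, chromosome 12, 54178981 to 54203860), the hydroxylase most readily induced by hypoxia in many cells, was at 20.6 and 18.04 CPM in young and at 18.6 and 22.6 CPM in old libraries (log2 fold change 0.09, with an edgeR adjusted p of 0.808 and an SE of 0.15).

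Hif1an (ENSMUSG00000036450, chromosome 19, 44562850 to 44576274), which encodes factor inhibiting HIF, was at 41.7 and 34.5 CPM in the young pair of batch B and at 35.03 and 31.8 CPM in the old pair. The ages overlapped narrowly (log2 fold change −0.19, SE 0.13, 95% interval −0.47 to 0.08). Vhl (ENSMUSG00000033933, chromosome 6, 113623959 to 113631633), the substrate receptor of the ligase, was at 46.4 and 57.5 CPM in young and at 54.2 and 61.1 CPM in old libraries. Its log2 fold change was 0.15 (edgeR adjusted p 0.552, SE 0.12).

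**Figure D2:**
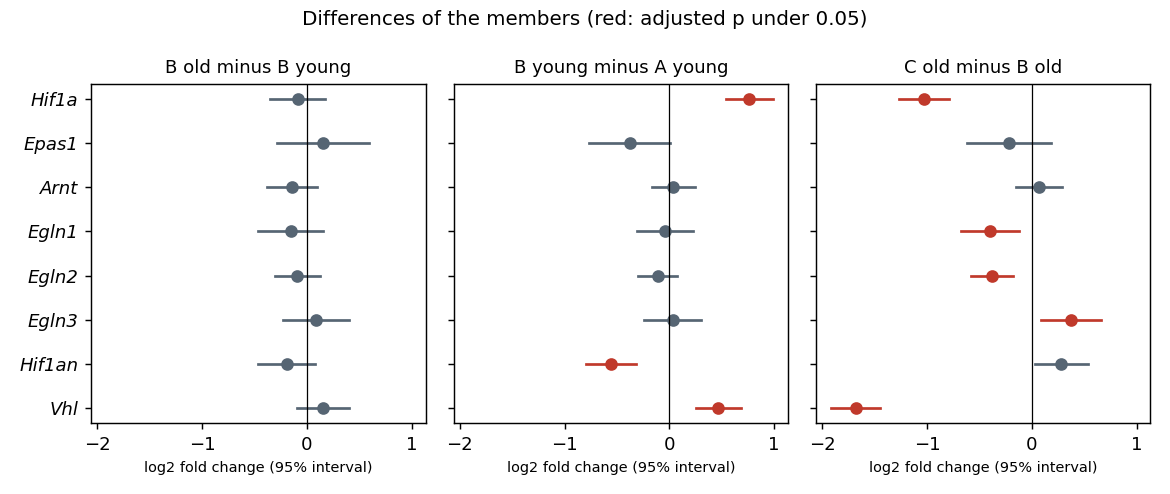
Log2 fold changes with 95% intervals from edgeR's fit of the 8 tested genes in the 3 comparisons, with red for an adjusted p-value under 0.05. In the age comparison each interval crosses 0. Vhl between batches C and B (−1.68) and Hif1a in both batch comparisons (0.76 and −1.03) lie farthest from 0.

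The second question was how far the same genes differed between batches at constant age. These comparisons share the batch B young or the batch B old libraries with the age comparison, so that their values are not independent of it. Among young MSCs, 3 of 8 genes passed the test between batches B and A, namely Hif1a and Vhl, which were higher in batch B, and Hif1an, which was lower. Among all genes, 25.9% passed (12.8% higher and 13.1% lower in batch B) and 38% had an unadjusted p-value under 0.05, as had 3 of the 8 HIF genes, so that the count of HIF genes is close to what the whole table gave. Hif1a was at 380.4, 328, 314.3 and 310.6 CPM in the batch A young libraries, all below both batch B young libraries. The difference was 1.70-fold, or 0.76 on the log2 scale (edgeR adjusted p 0.000241, SE 0.11). It stayed between 0.69 and 0.84 when each library was left out in turn and was 0.54 after a correction for transcript length and GC content.

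Vhl was at 39.01, 37.1, 37.0 and 37.1 CPM in batch A young libraries, again below both batch B young libraries (log2 fold change 0.47, with an edgeR adjusted p of 0.00373 and an SE of 0.10). Without batch B young replicate 2 the value fell to 0.31 and no longer passed (edgeR adjusted p 0.0671). Hif1an was at 60.1, 57.9, 55.6 and 50.6 CPM in batch A young libraries. All were above both batch B young libraries, and the log2 fold change was −0.55 (edgeR adjusted p 0.00249, SE 0.11). After the length and GC correction it was −0.28 and still passed (limma-trend adjusted p 0.0301).

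The remaining genes did not pass between batches B and A. Arnt, Egln1 and Egln3 had log2 fold changes of 0.04, −0.04 and 0.03. Epas1 was at 19.7, 27.5, 30.1 and 36.1 CPM in batch A young libraries, the widest relative spread of the 8 tested genes in that group, and its log2 fold change of −0.38 (edgeR adjusted p 0.134, SE 0.18) passed when batch A young replicate 1 was left out (−0.52, edgeR adjusted p 0.0133), whereas the length and GC correction brought it to −0.0786 (limma-trend adjusted p 0.794). Egln2 was at 57.7, 58.7, 63.3 and 56.8 CPM, with no overlap with batch B young libraries, as for 39% of all genes, and a log2 fold change of −0.11 that did not pass (edgeR adjusted p 0.382, SE 0.09).

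Among old MSCs, 5 of 8 genes passed between batches C and B, while 55.2% of all genes did (26.9% higher and 28.3% lower in batch C). At an unadjusted p-value under 0.05 there were 6 of 8 genes and 60.3% of all genes. Vhl, Hif1a, Egln2 and Egln1 were lower in batch C and Egln3 was higher. Vhl had the largest difference of the 8 genes. It was at 17.7, 17.8 and 18.4 CPM in batch C old libraries, 3.21-fold below batch B old libraries (log2 fold change −1.68, with an edgeR adjusted p of 1.54e-08 and an SE of 0.11), and the groups were far apart. Hif1a was at 259.5, 263.2 and 261.5 CPM in batch C old libraries, which is 2.04-fold lower than in batch B (log2 fold change −1.03, with an edgeR adjusted p of 2.14e-06 and an SE of 0.11). Both differences passed under every alternative tried, with ranges over the left-out libraries of −1.77 to −1.59 for Vhl and −1.14 to −0.91 for Hif1a. Total count scaling shifted the median log2 fold change of the whole table by 0.19 in this comparison, and under it the values were −1.49 and −0.84.

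The prolyl hydroxylases differed less and in opposite directions. Egln1 was at 94.5, 98.2 and 98.5 CPM in batch C old libraries (log2 fold change −0.40, with an edgeR adjusted p of 0.0181 and an SE of 0.13) and Egln2 at 38.8, 38.2 and 41.5 CPM (log2 fold change −0.38, with an edgeR adjusted p of 0.0027 and an SE of 0.09). Both were below each batch B old library. Under total count scaling neither passed, with values of −0.21 and −0.19, whereas the length and GC correction gave larger differences, −0.65 and −0.58, which passed (limma-trend adjusted p 0.000179 and 3.57e-05). Egln1 also failed without batch B old replicate 2 (−0.29) or batch C old replicate 1 (−0.38). Egln3 was at 27.97, 25.99 and 26.3 CPM, above both batch B old libraries (log2 fold change 0.38, with an edgeR adjusted p of 0.0268 and an SE of 0.13). The call on Egln3 was lost without batch B old replicate 1 (0.24) and without batch C old replicate 1 (0.345) or 3 (0.39).

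Hif1an was at 37.1, 43.9 and 40.99 CPM in batch C old libraries, above both batch B old libraries, and missed the threshold (log2 fold change 0.28, with an edgeR adjusted p of 0.0536 and an SE of 0.12). It passed with RLE scaling or DESeq2 (0.31), total count scaling (0.47), a minimum count of 10 (0.30), only the groups compared (0.28) or without batch C old replicate 1 (0.35), and had the opposite sign after the length and GC correction (−0.13). Arnt, at 74.6, 82.1 and 78.9 CPM, and Epas1, at 19.9, 20.5 and 21.9 CPM, overlapped with batch B old libraries, and their log2 fold changes were 0.07 (SE 0.10) and −0.22 (SE 0.19). Arnt passed under total count scaling (0.26) and Epas1 after the length and GC correction (−0.57). In all, 6 of 8 genes did not overlap between batches C and B, compared with 75.4% of all genes.

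Because library scaling moved several calls, ratios between genes were taken within each library, where scaling cancels. The ratio of Hif1a to Arnt in RPKM was 5.64 ± 0.547 in batch A (SD, n = 4) and 4.53 ± 0.186 in batch C (SD, n = 3), and 9.36 ± 0.524 in young and 9.703 ± 1.48 in old libraries of batch B (SD, n = 2 each). Batch B libraries of both ages stood above all others, at 8.66 to 10.75, and the ages overlapped within it. The ratio of Hif1a to Hif1an, its asparaginyl hydroxylase, separated batch B more widely, at 15.7 to 20.3 compared with 6.34 to 7.84 in batches A and C. Differences between libraries that depend on transcript length or GC content do not cancel in such ratios. With the correction for these, Hif1a and Hif1an had log2 fold changes of 0.54 and −0.28 between batches B and A, instead of 0.76 and −0.55.

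Hif1a and Vhl moved in the same direction between batches but not by the same amount. Their ratio was 4.26 to 4.96 in batch A, 4.76 and 6.51 in the young and 4.62 and 4.78 in the old libraries of batch B, and 7.21 to 7.51 in batch C, where it was highest. Among the prolyl hydroxylases, Egln3 made up 9.48% to 11.1% of the summed RPKM of Egln1, Egln2 and Egln3 in batch A, 10.6% and 11.3% in the young and 11.96% and 13.1% in the old libraries of batch B, and 18.98% to 20.8% in batch C. The ratio of Egln1 to Egln3 was correspondingly 2.501 to 2.799 in batch C old libraries and at least 4.49 in every other library.

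**Figure D3:**
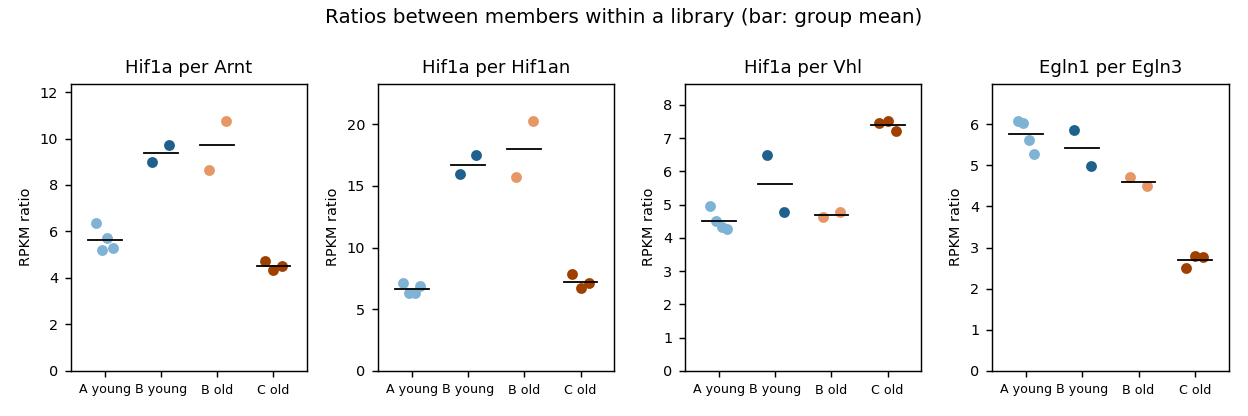
Ratios of RPKM between pairs of genes within a library (linear axes from 0, without the length and GC correction), with 1 point per library and a bar at the group mean. Hif1a per Arnt and Hif1a per Hif1an are highest in batch B at both ages, and Egln1 per Egln3 is lowest in batch C old libraries, at 2.501 to 2.799.

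A comparison of all young with all old libraries, without batch in the model, called 1 of the 8 genes. The same fit called 2641 of all genes, compared with 360 of 16132 in the age comparison within batch B. Its filter on low counts used the ages in place of the 4 groups. The number of genes it tested is not given here, so the 1 of 8 has no share of all genes beside it. Egln2 was lower in old MSCs (log2 fold change −0.37, edgeR adjusted p 0.0323), whereas within batch B it was −0.09. With TMM scaling all old libraries lay below all young libraries, at 38.2 to 41.5 CPM in batch C and at 51.03 and 51.7 CPM in batch B, while the lowest young library was at 54.2 CPM. With total count scaling the ages overlapped, with batch B old libraries at 52.06 and 52.05 CPM and batch A young replicate 1 at 51.24 CPM. How many of all genes separated all old from all young libraries was not counted. Age and batch cannot be told apart in that comparison, since batch A held only young and batch C only old libraries.

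The other genes of the pathway were described in 4 lists, which were chosen with earlier results of these data known. Counts within a list, set beside the share of all genes, are therefore descriptions. In the age comparison within batch B, the 22 hypoxia target genes held 3 that were lower and 1 that was higher in old MSCs (of all genes 1.54% were lower and 0.694% higher), with a list median of −1e-04. Car9, which encodes a carbonic anhydrase of the cell surface and is among the genes most strongly dependent on HIF-1, was at 49.6 and 56.6 CPM in the young pair of batch B and at 12.3 and 20.3 CPM in the old pair. The difference was 3.25-fold (log2 fold change −1.70, with an edgeR adjusted p of 0.000619 and an SE of 0.20), it passed under every alternative tried, and it stood beside a Hif1a transcript whose ages overlapped. Ndrg1, a stress-response gene, had a log2 fold change of −0.69 (edgeR adjusted p 0.04) and Adm, which encodes the vasodilator adrenomedullin, of −0.59 (edgeR adjusted p 0.0209). Ddit4, an inhibitor of mTORC1 signalling, was higher in old MSCs by 0.46 (edgeR adjusted p 0.0327).

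From the list of HIF stability and degradation genes, 1 of 17 passed in the age comparison, where 2.23% of all genes did. This was Os9, which encodes a lectin of endoplasmic reticulum quality control that has been described as a partner of HIF-1α and its hydroxylases (log2 fold change −0.52, edgeR adjusted p 0.0227). Of 16 tested partners and co-regulators, 1 passed, again beside 2.23% of all genes. This was Cited2, whose product competes with HIF-α for the co-activators p300 and CBP. Cited2 was at 244.9 and 274.6 CPM in the young pair of batch B and at 170.4 and 175.9 CPM in the old pair (log2 fold change −0.58, edgeR adjusted p 0.0126). Apart from Car9, every list gene called for age was lost when only batch B was fitted (edgeR adjusted p 0.156 to 0.27), although the fold changes stayed about as large (Cited2 −0.58, Adm −0.59), and when batch B old replicate 1 was left out (edgeR adjusted p 0.122 to 0.385). Without batch B old replicate 2 the calls on Cited2 (edgeR adjusted p 0.0907), Ddit4 (0.182), Os9 (0.059) and Plod1 (0.0729) were lost, and without batch B young replicate 1 those on Ddit4 (0.0529), Ndrg1 (0.202), Os9 (0.0843) and Plod1 (0.109). Plod1 encodes a collagen lysyl hydroxylase and is the one gene of the list of other dioxygenases that was called for age.

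Between batches C and B at old age, 11 of 17 stability and degradation genes were lower in batch C and 2 were higher (28.3% and 26.9% of all genes), with a list median of −0.56 compared with 0.02 for all genes. The lower genes included all subunits of the ligase in which VHL works. Rbx1, its RING subunit, was at 83.7 and 91.01 CPM in batch B old and at 35.5 to 35.97 CPM in batch C old libraries (log2 fold change −1.29, with an edgeR adjusted p of 8.69e-07 and an SE of 0.13). The adaptors Elob and Eloc had log2 fold changes of −1.03 and −1.20, and the scaffold Cul2 of −0.73 (edgeR adjusted p 0.000151). Elob, Eloc and Cul2 are named here outside the rule for named genes, and were chosen after their values were seen. Rack1, a ribosomal scaffold that also binds HIF-1α, had the lowest value of the list, at −1.90 (edgeR adjusted p 7.37e-08). P4htm, a transmembrane prolyl hydroxylase, and Usp33, a deubiquitinase that binds VHL, were higher by 1.03 and 0.47, and each call was lost without batch B old replicate 2 (edgeR adjusted p 0.0781 and 0.0699).

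Hypoxia target genes did not follow a single direction between these batches. In batch C old libraries 13 of 22 were lower and 4 were higher (28.3% and 26.9% of all genes), with a median of −0.43. Ddit4 (−1.78) and the glycolytic enzyme gene Pgk1 (−1.08) were the lowest, whereas Vegfa, which encodes the main angiogenic growth factor, was 2.1-fold higher at 157.5 to 167.1 CPM against 74.2 and 79.9 CPM (log2 fold change 1.07, with an edgeR adjusted p of 6.75e-07 and an SE of 0.10). Kdm3a, a histone demethylase gene, was higher by 0.89. Between batches B and A at young age, 9 of 22 targets were called, each higher in batch B (12.8% of all genes were higher and 13.1% lower), led by the mitophagy receptor gene Bnip3 (0.92) and Pgk1 (0.78), with a list median of 0.30. In the same comparison 6 of 17 stability and degradation genes were higher, led by Cul2 (0.82) and Cul5 (0.79), and 2 were lower, Elob (−0.34) and Usp20 (−0.34). The calls on Elob and Usp20 were both lost under total count scaling (edgeR adjusted p 0.15 and 0.104), and Usp20 turned to 0.02 after the length and GC correction.

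**Figure D4:**
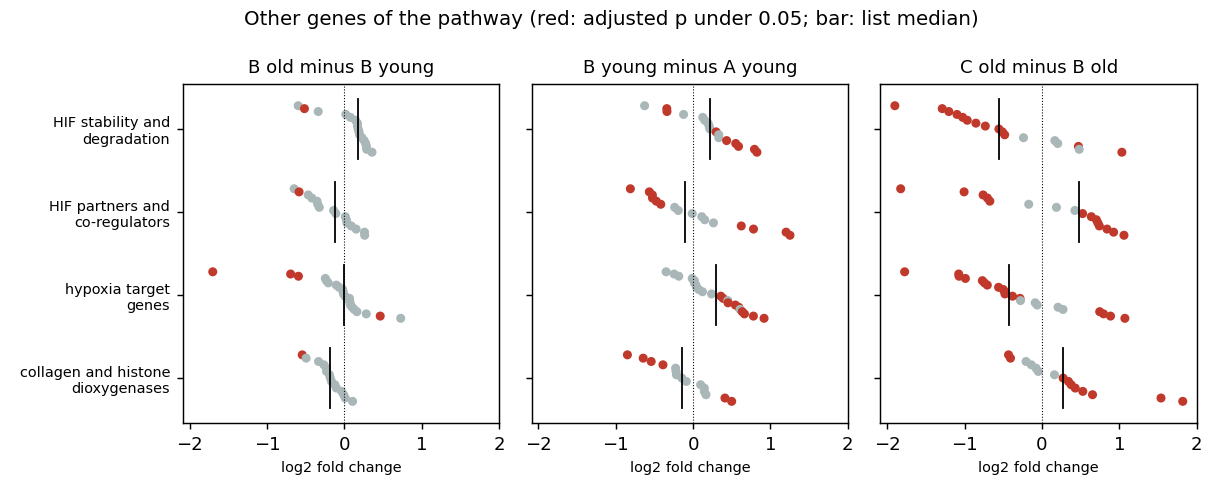
Log2 fold changes (edgeR) of the genes of 4 lists in the 3 comparisons, with 1 point per gene, red for an adjusted p-value under 0.05 and a bar at the list median. Car9 at −1.70 is the point farthest from 0 in the age comparison, and the stability and degradation list has its median at −0.56 between batches C and B.

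Finally, the genes with the most similar pattern over the 11 libraries were listed for 3 members, as Pearson correlations of log2 CPM among 13706 protein-coding genes. The points share batches, and the values are descriptions. For Hif1a these were Arfip1 (r = 0.991), Copb2 (r = 0.986) and Vapa (r = 0.983), whose products act in membrane traffic. Arfip1 was at 118 to 131 CPM in batch B libraries of both ages, at 87.7 to 96.9 CPM in batch A and at 76.8 to 79.5 CPM in batch C libraries. For Epas1 they were B2m (r = 0.962), Hid1 (r = 0.914) and Gm21188 (r = 0.909), of which Hid1 and Gm21188 were at no more than 2.64 CPM. For Egln3 they were Zfp143 (r = 0.968), Cep78 (r = 0.953) and Als2cl (r = 0.949), and Als2cl was at 12.2 to 12.96 CPM in batch C old libraries and at no more than 5.74 CPM in any other.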

How the data were processed

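The values that the authors deposited were raw read counts for each Ensembl gene in 11 libraries of polyadenylated RNA. The submitters' processing notes name the builds mm10 and GRCm38. The aligner, the counting tool and the use of strand or molecular identifiers are not given in the sources used here. Identifiers were matched to GENCODE M21 (GRCm38), which held 28179 of 28222 genes.

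The main test was edgeR quasi-likelihood (version 4.0.16, R 4.3.3), with 4 groups of age and batch fitted together, filterByExpr with a minimum count of 5, TMM factors and Benjamini-Hochberg adjustment over all genes tested, two-sided, at 0.05. This model is equal to batch plus age. Intervals are 95% and cover the fitted spread. CPM used TMM-scaled totals, and log2 CPM for correlations and limma a prior count of 2. RPKM used the summed length of annotated exons. Alternatives were limma-trend (limma 3.58.1), DESeq2 1.42.0, RLE or total count scaling, a minimum count of 10, no filter, only the groups compared, each library left out, the replicate block, no batch term, and a length and GC correction (loess, span 0.3). Scripts were tested on simulated counts.

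The 9 genes and all lists were chosen with earlier results of these data known. List genes are named when called for age or, between batches, for the 2 largest fold changes per list and direction. For Hif1a, Epas1 and Egln3 the 3 most correlated genes are named. Positions are 1-based. No library repeated another of its group, as the chi-square statistic per gene was 3.24 to 18.6 for pairs of libraries within batches A and C, 52.4 for the young and 23.7 for the old pair of batch B. Pairs from different groups were not compared in this way.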

Additional observations from a re-analysis of the deposited data

Results flagged for a closer look

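Vhl in batch A young libraries was flagged because replicate 1, at 39.01 CPM, lay apart from the other libraries, at 37.0, 37.1 and 37.1 CPM. Its gap divided by the range of the group was 0.965, above Dixon's 95% critical value for 4 libraries. The group had an SD of 0.985 CPM, so that the gap was small beside the difference to batch B. Each of the 9 genes was examined in this group alone, and chance flags about 5% of such groups.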

How the results depend on the processing

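In the age comparison 0 of the 8 genes were called under each alternative other than the fit without batch, which called 1, and when any library was left out (0 to 0). The number of all genes called was 360 and moved to 640 with DESeq2, 1094 without a filter, 2641 without batch, 123 with only the groups compared and 84 (without batch B old replicate 1) to 2007 (without batch B young replicate 2) when a library was left out, with 203 without batch B old replicate 2 and 206 without batch B young replicate 1. Between batches B and A the count was 3 genes (2 to 4 with a library left out), with 4171 of all genes called, 2686 with only the groups compared, 2566 with the replicate block and 1701 (without batch B young replicate 2) to 5348 with a library left out. Between batches C and B it was 5 (4 to 5 with a library left out, and 4 to 6 under the other alternatives), with 8902 of all genes called and 6796 to 7981 with a library left out. The share of calls that were higher was 31.1%, 49.4% and 48.7% in the 3 comparisons and 44.8%, 65.4% and 63.1% under total count scaling.

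Directions turned only for values that had not passed, apart from Cited2 and Ddit4, which without batch had 0.0065 and −0.31, and Usp20, which had 0.0182 after the length and GC correction. Without batch Epas1 and Vhl had −0.22 and −0.31. Under the length and GC correction Egln2 had 0.0127 for age, Egln1 and Egln2 had 0.22 and 0.16 between batches B and A, and Arnt and Hif1an −0.0573 and −0.13 between batches C and B. Total count scaling gave Egln1 0.056 between batches B and A. With libraries left out, the age values ranged from −0.21 to 0.031 for Hif1a, −0.0319 to 0.33 for Epas1, −0.0615 to 0.24 for Egln3, −0.36 to 0.0748 for Egln1, 0.002 to 0.31 for Vhl, −0.26 to −0.0078 for Arnt and −0.32 to −0.0478 for Hif1an. Between batches B and A those of Egln1 ranged from −0.27 to 0.16, of Egln3 from −0.0703 to 0.13 and of Arnt from −0.0955 to 0.16. The cause of these changes was not tested.

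Deviations from the group mean correlated at −0.11 to 0.14 between libraries with the same replicate number. In a group of 2 these deviations mirror each other. Between the ages in batch B the correlation was therefore the same with either sign, 0.0365 for equal and −0.0365 for unequal numbers. Whether libraries were paired by number in the age comparison cannot be decided from such mirrored values. With the replicate block 0, 3 and 4 of the 8 genes were called in the 3 comparisons, and 262 of all genes for age. The block ended the call on Egln3 between batches C and B (0.36, edgeR adjusted p 0.0707) and, for age, those on Ddit4 (0.0802), Ndrg1 (0.0528), Os9 (0.0567) and Plod1 (0.0715), and it gave −0.14 for Epas1 between batches B and A. Total count scaling ended the age calls on Adm (0.0554), Ndrg1 (0.0698) and Os9 (0.0507). A library left alone in its group was assumed to vary like the others. With 11969336 to 20315934 counts per library, Hif3a was the one gene too rare to be tested.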

Other observations

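Enzymes that share the oxygen-dependent chemistry of the prolyl hydroxylases but act on collagen, histones or, for the TET enzymes, DNA were described as a list of 15. In the age comparison 1 of 15 was called, as were 2.23% of all genes. This was Plod1, which hydroxylates collagen lysines and was lower in old MSCs (log2 fold change −0.54, edgeR adjusted p 0.0231). It was at 269.9 and 293.5 CPM in old and at 363.1 and 458.3 CPM in young libraries of batch B. Between batches C and B at old age 8 of 15 were higher and 2 were lower, or 10 of 15 in all, compared with 55.2% of all genes (26.9% higher and 28.3% lower). Tet2 and Tet1, which oxidise methylated cytosine, were higher by 1.82 and 1.54 on the log2 scale, with Tet2 at 30.8 to 37.8 CPM in batch C old and at no more than 11.1 CPM in the other libraries. Plod2 and Plod1 were lower, by −0.43 and −0.41, and neither passed under total count scaling. Between batches B and A at young age, Plod2 and Kdm4c were higher (0.50 and 0.41) and Kdm6b and Tet3 were lower (−0.85 and −0.65). Of these, Kdm4c and Tet3 were lost without batch B young replicate 2 and after the length and GC correction.

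Among 16 tested partners and co-regulators of HIF, 8 were higher and 5 lower in batch C than in batch B old libraries (26.9% and 28.3% of all genes). The co-activator genes Ncoa2 and Ep300 were higher by 1.06 and 0.93, and the clock genes Npas2 and Arntl, relatives of Arnt, were lower, with log2 fold changes of −1.83 and −1.01. Arntl was at 5.76 to 7.18 CPM in batch C old, 11.9 to 13.7 CPM in batch B and 5.04 to 6.28 CPM in batch A libraries. Between batches B and A it was higher by 1.20, as was Ahrr, the repressor of the aryl hydrocarbon receptor, by 1.25, while Bhlhe41 (−0.81) and Ep300 (−0.57) were lower, and both of the latter calls were lost without batch B young replicate 2 (edgeR adjusted p 0.124 and 0.0916).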
